A study of Mus musculus with 2 samples.

Results

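The genes described here are 33 enzymes and regulators of sterol and fatty acid synthesis, chosen by name from a list and matched through the RefSeq accessions of their probes (Msmo1 under its older symbol Sc4mol too). All 33 were found among 18434 mouse genes that the arrays could name. They comprise 16 enzymes that build cholesterol, 11 that supply, build, desaturate or elongate fatty acids, and 6 genes that regulate these enzymes or move sterol between membranes. The cells were CD4 T lymphocytes sorted magnetically to over 98% purity from spleens of C57BL/6 mice, stimulated through the T cell receptor and CD28 for 2 days, then kept for 3 more days before harvest. The Th9+IFNgamma culture contained IL-4 at 3 ng/ml, TGFbeta at 3 ng/ml and IFNgamma at 10 ng/ml. The Th9 culture contained IL-4 at 10 ng/ml, TGFbeta at 3 ng/ml and an antibody against IFNgamma at 1 μg/ml. The added IFNgamma, the IL-4 dose and the antibody therefore cannot be told apart in any difference between the cultures. The number of mice behind each culture is not given in the sources used here. In RNA from a whole culture, fewer cells of a type and less RNA per cell cannot be told apart.

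Cholesterol is made from acetyl-CoA through mevalonate and squalene, and fatty acids are made from acetyl-CoA through malonyl-CoA. Both pathways are controlled by the SREBP transcription factors, which SCAP escorts out of the endoplasmic reticulum when sterol is scarce and which the INSIG proteins hold back when sterol is plentiful. Activated T cells are known to switch on both pathways to build membrane before they divide, and naive cells keep them low.

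With 1 single-colour array per culture there were no replicates, and no test was possible. Values are scaled signals, that is, background-subtracted intensities after both arrays were brought to the same 75th percentile, and they compare 1 gene between arrays and never different genes. A difference is given as a fold, the higher over the lower signal, or as the log2 value of Th9+IFNgamma minus that of Th9, and a difference of at least 2-fold serves as the threshold. Among probes printed 10 times on each array, the log2 difference of a single spot scattered with an SD of 0.05 within the 66 probes of signal 1000 or more, and of 0.19 within 78 dimmer probes. The extraction software attached an error of 0.20 to the log2 difference of each of the 33 genes, and 18 of the 33 differences exceeded it. Such errors arise on the array itself and leave out how mice, cultures and labelling reactions vary.

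The arrays carried 56 probes for the 33 genes, and all 56 were well above background on both. The T cell markers Cd3d, Cd3e, Cd3g, Cd4, Cd5, Cd28, Lck and Thy1 were detected on both arrays as well, all within 2-fold. Of 8 macrophage and dendritic cell markers with a probe, Lyz2, Itgam, Itgax and Siglech were not well above background in either culture. The summed signal of the 8, a measure for setting one array against the other, was 114 in Th9+IFNgamma cells and 277 in Th9 cells. Adgre1, at 25.8 in Th9+IFNgamma cells and 186 in Th9 cells, accounted for nearly all of that gap. Csf1r was level at 34.1 in Th9+IFNgamma cells and 34.3 in Th9 cells, Cd14 had 26.4 in Th9+IFNgamma cells and 21.3 in Th9 cells, and Flt3 had 11.6 in Th9+IFNgamma cells and 15.1 in Th9 cells. The 6 B cell markers summed to 995 in Th9+IFNgamma cells and 1520 in Th9 cells, and Pax5 was not well above background in either culture. The CD8 chain gene Cd8a had signals of 1338 in Th9+IFNgamma cells and 1074 in Th9 cells. The 3 NK cell markers summed to 56.9 in Th9+IFNgamma cells and 94.8 in Th9 cells, and the 4 erythroid markers to 153 in Th9+IFNgamma cells and 88.4 in Th9 cells. The part of other cells in the values below was not tested.

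Sterol and fatty acid synthesis genes were expressed in both cultures at signals that differed little. Of the 33 genes, 31 lay within 1.5-fold (93.9%), against 71.9% of the 12272 named genes measured on both arrays and 79.0% of the 6057 genes with a mean signal of 1000 or more. The 1 gene at least 2-fold higher in Th9+IFNgamma cells was Fads2, the delta-6 desaturase of polyunsaturated fatty acid synthesis, and no gene was at least 2-fold lower. Over all named genes 5.15% passed 2-fold upward and 7.42% downward, and among the genes of signal 1000 or more these shares were 4.01% and 3.78%. At 1.5-fold, 1 of the 33 genes was higher and 1 was lower, against 12.6% and 15.5% of all named genes. The median size of the difference was 1.16-fold for the 33 genes, 1.22-fold for the genes of signal 1000 or more and 1.26-fold for all named genes. These counts describe 2 arrays, and genes are not replicates of a culture.

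**Figure D1:**
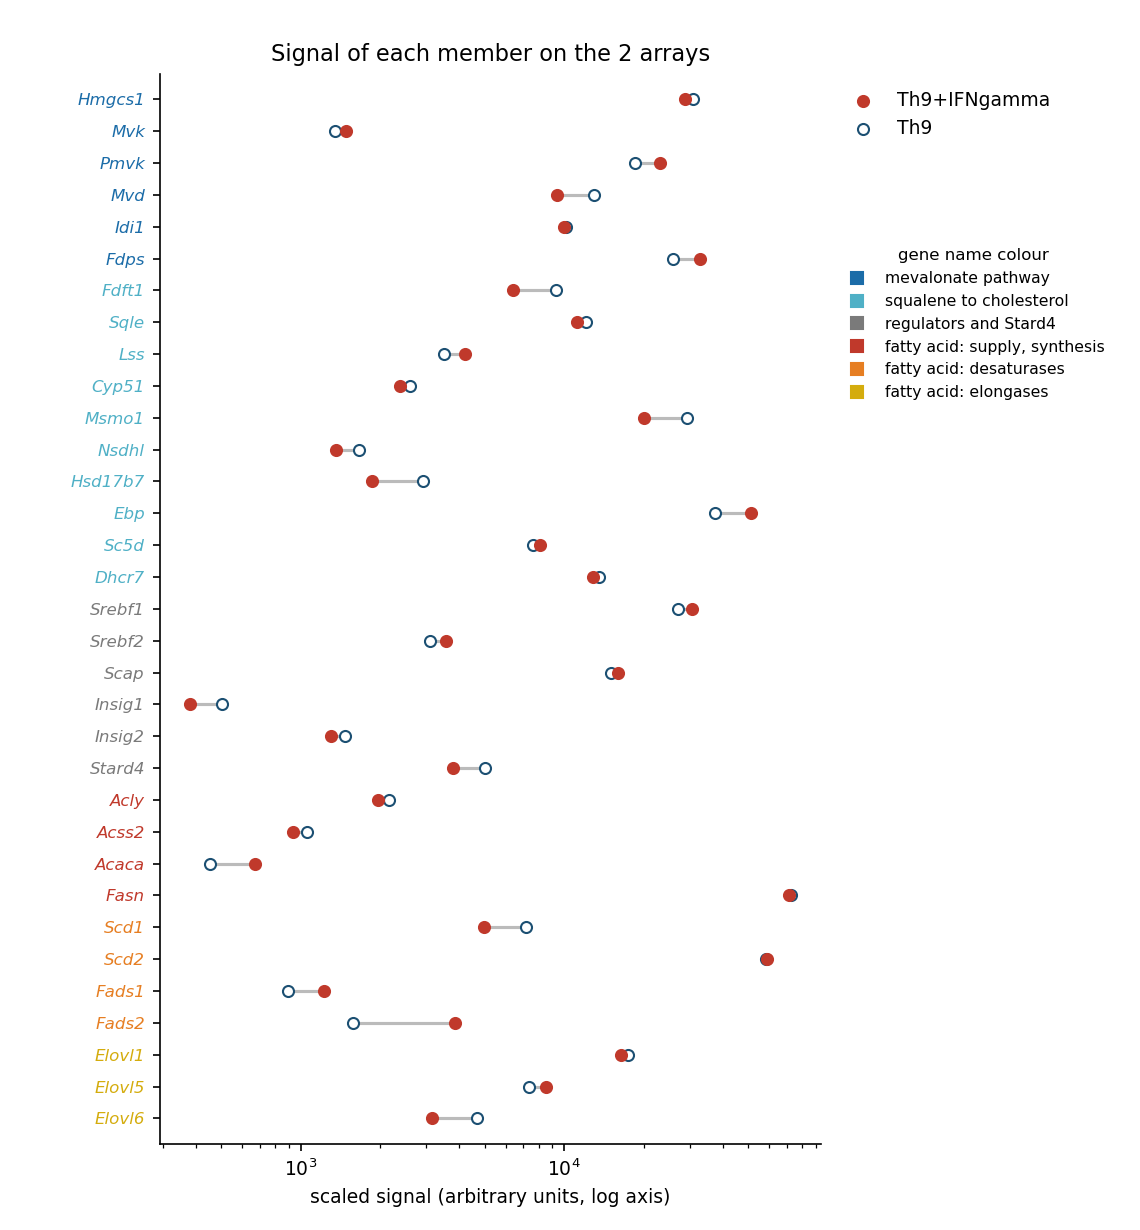
Scaled signal of each of the 33 genes on the Th9+IFNgamma array (filled points) and the Th9 array (open points), on a log axis in arbitrary units, with gene names coloured by role. The points of a gene lie close together except for Fads2, at 3844 in Th9+IFNgamma cells and 1585 in Th9 cells, and levels of different genes cannot be compared.

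**Figure D2:**
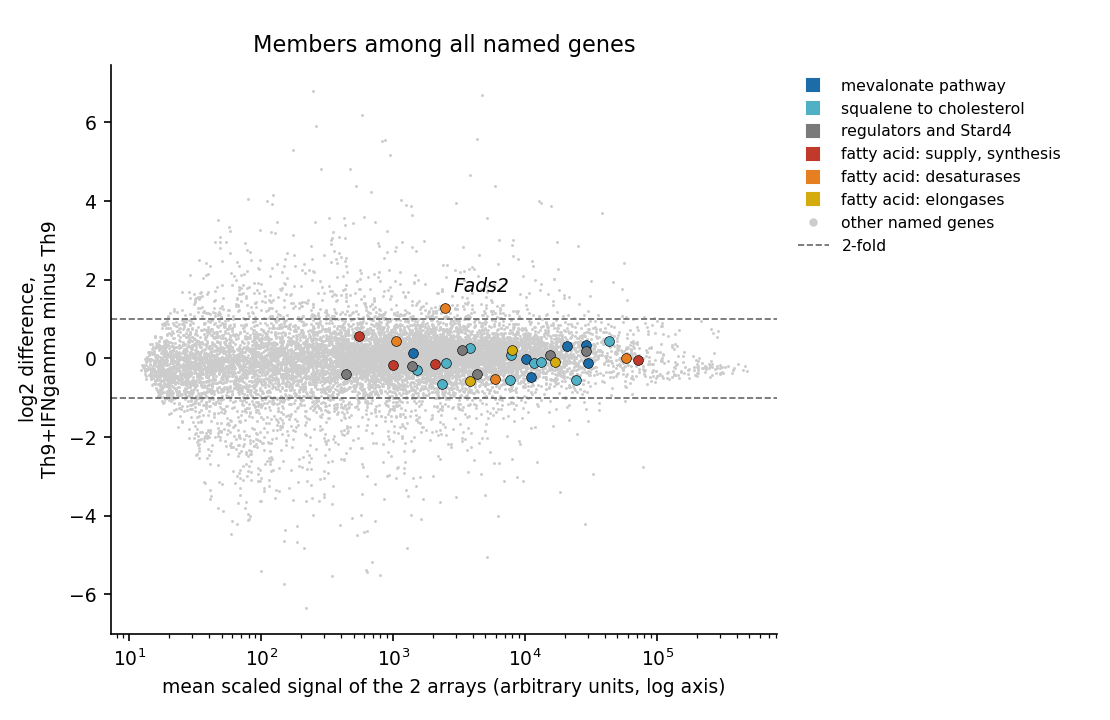
Log2 difference (Th9+IFNgamma minus Th9) against the mean scaled signal of both arrays, log axis, for 12272 named genes in grey and the 33 sterol and fatty acid genes in colour by role. Of the 33 genes, all but Fads2 lie between the dashed 2-fold lines.

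To show the control regions of the genes that the results turn on, the 250 bases before the annotated start site are given below from RefSeq (build GRCm38.p6), 5′ to 3′ along the gene's strand. Of the 33 genes, 26 matched an entry by symbol, and Fdps, Fdft1, Sqle, Stard4, Scd1, Scd2 and Fads1 did not. Fads2 is shown as the gene at least 2-fold apart. Hmgcs1 is shown as the sterol enzyme whose window holds TCACNCCAC, letters like those of a sterol regulatory element. Ebp and Hsd17b7, chosen after their values were seen, are the sterol enzymes with the highest and the lowest difference. The windows lie at chr19:10101504-10101753 on the minus strand (Fads2), chr13:119690101-119690350 on the plus strand (Hmgcs1), chrX:8193513-8193762 on the minus strand (Ebp) and chr1:169969206-169969455 on the minus strand (Hsd17b7). Capitals mark TCACNCCAC and the CCAAT box, both searched on both strands, so that a CCAAT box on the other strand reads ATTGG.
Fads2: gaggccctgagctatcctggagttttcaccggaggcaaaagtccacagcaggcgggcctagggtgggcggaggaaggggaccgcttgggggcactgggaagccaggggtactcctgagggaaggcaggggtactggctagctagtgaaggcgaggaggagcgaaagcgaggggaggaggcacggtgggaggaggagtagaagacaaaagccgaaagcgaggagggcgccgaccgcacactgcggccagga
Hmgcs1: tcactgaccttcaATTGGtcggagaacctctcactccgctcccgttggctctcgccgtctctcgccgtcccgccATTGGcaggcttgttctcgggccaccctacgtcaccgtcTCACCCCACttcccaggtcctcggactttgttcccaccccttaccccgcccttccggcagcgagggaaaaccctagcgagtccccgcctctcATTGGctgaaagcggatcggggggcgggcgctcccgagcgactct
Ebp: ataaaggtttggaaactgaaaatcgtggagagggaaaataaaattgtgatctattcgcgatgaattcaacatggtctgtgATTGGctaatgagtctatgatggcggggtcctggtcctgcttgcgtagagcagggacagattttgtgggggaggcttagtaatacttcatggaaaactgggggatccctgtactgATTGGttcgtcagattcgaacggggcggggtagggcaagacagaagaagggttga
Hsd17b7: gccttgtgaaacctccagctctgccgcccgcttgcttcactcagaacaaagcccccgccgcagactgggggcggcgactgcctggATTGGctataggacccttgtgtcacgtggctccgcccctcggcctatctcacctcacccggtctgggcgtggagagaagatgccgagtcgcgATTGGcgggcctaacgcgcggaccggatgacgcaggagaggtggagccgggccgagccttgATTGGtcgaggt

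The CCAAT box, bound by NF-Y, a known partner of SREBP, was the element that the sterol enzymes shared. It stood in the window of 13 of 13 sterol enzymes with an entry (some genes have several windows), of 4 of 8 fatty acid enzymes and of 4 of the 5 regulators, against 40.4% of the 9866 measured genes with an entry. Per window, it was in 13 of 16 windows of sterol enzymes (81.2%) and in 33.9% of all 32851 windows of this length. The GC box GGGCGG was in the windows of 12 of 13 sterol enzymes and 4 of 8 fatty acid enzymes, against 61.8% of the measured genes. TCACNCCAC was in the window of 1 of the 26 genes, Hmgcs1, where it starts at position -137 from the start site, and in 1.05% of all windows. Only exact matches were searched, so variants of this pattern were not counted. The Fads2 window held no CCAAT box and 1 GC box. Ebp, with 2 CCAAT boxes, was 1.37-fold higher in Th9+IFNgamma cells, and Hsd17b7, with 3, was 1.56-fold lower. A match of letters is a description and not evidence of binding.

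The mevalonate pathway turns acetyl-CoA into the isoprenoid units from which sterols and protein prenyl groups are made, and its 6 measured enzymes were divided, 3 above and 3 below, with a median log2 difference of 0.06 (Hmgcs1 and Idi1 turned sign in some alternative settings). Hmgcs1, which makes HMG-CoA, had signals of 28729 in Th9+IFNgamma cells and 30879 in Th9 cells, and Mvk, mevalonate kinase, had 1489 in Th9+IFNgamma cells and 1350 in Th9 cells. Both differed by no more than 1.10-fold. Pmvk, phosphomevalonate kinase, had 23178 in Th9+IFNgamma cells against 18561 in Th9 cells, and Mvd, which decarboxylates the product of Pmvk, had 9394 in Th9+IFNgamma cells against 12949 in Th9 cells. These consecutive enzymes thus lay on opposite sides, Pmvk 1.25-fold higher and Mvd 1.38-fold lower. Idi1, an isomerase of the isoprenoid unit, was level at 9992 in Th9+IFNgamma cells and 10173 in Th9 cells. Fdps, which joins these units into farnesyl pyrophosphate, had 32740 in Th9+IFNgamma cells against 25865 in Th9 cells, 1.27-fold higher.

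From squalene synthesis onward the 10 enzymes ran from 1.56-fold lower to 1.37-fold higher, with a median of -0.12. Of the 10, 7 lay below 0 and 3 above, against 6188 of 12272 named genes below 0. Sqle, Cyp51, Dhcr7 and, above 0, Sc5d lay within the software error of 0.20. Fdft1, Sqle, Cyp51 and Dhcr7 turned sign in some alternative settings. Fdft1, squalene synthase, which commits farnesyl pyrophosphate to sterol, had 6401 in Th9+IFNgamma cells and 9286 in Th9 cells, 1.45-fold lower. Its second probe was dim, at 21.6 in Th9+IFNgamma cells and 19.5 in Th9 cells, with a log2 difference of 0.15. Sqle, squalene epoxidase, had 11178 in Th9+IFNgamma cells against 12082 in Th9 cells, and Lss, which closes the sterol rings, had 4197 in Th9+IFNgamma cells against 3487 in Th9 cells. Cyp51, the lanosterol demethylase, was level at 2390 in Th9+IFNgamma cells and 2606 in Th9 cells. Its 3 probes ran from -0.12 to 0.03.

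All 3 enzymes of the complex that removes the methyl groups at carbon 4 of the sterol ring were lower in Th9+IFNgamma cells, a grouping made after the values were seen. Msmo1, its oxidase, had 20044 in Th9+IFNgamma cells against 29175 in Th9 cells, 1.46-fold lower. Nsdhl, its dehydrogenase, had 1360 in Th9+IFNgamma cells against 1663 in Th9 cells (1.22-fold lower), and Hsd17b7, its ketoreductase, had 1861 in Th9+IFNgamma cells against 2901 in Th9 cells (1.56-fold lower). All 3 Nsdhl probes (-0.29 to -0.18) and both Hsd17b7 probes (-0.64 and -0.60) lay below 0. The log2 difference of each of the 3 genes stayed below 0 in the 10 alternative settings, at most -0.43 for Msmo1, -0.18 for Nsdhl and -0.53 for Hsd17b7. Settings that change the filter or the choice of probe could not move Msmo1, which has 1 probe. Erg28, which encodes a scaffold of the same complex and is not among the 33, had 23812 in Th9+IFNgamma cells against 20938 in Th9 cells, 1.14-fold higher. Of the enzymes after this complex, Ebp was higher, and Sc5d and Dhcr7 were level. Ebp, a sterol isomerase, had 50928 in Th9+IFNgamma cells against 37213 in Th9 cells. Sc5d, a sterol desaturase, had 8059 in Th9+IFNgamma cells against 7595 in Th9 cells, and Dhcr7, which performs a last reduction to cholesterol, had 12838 in Th9+IFNgamma cells against 13587 in Th9 cells.

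**Figure D3:**
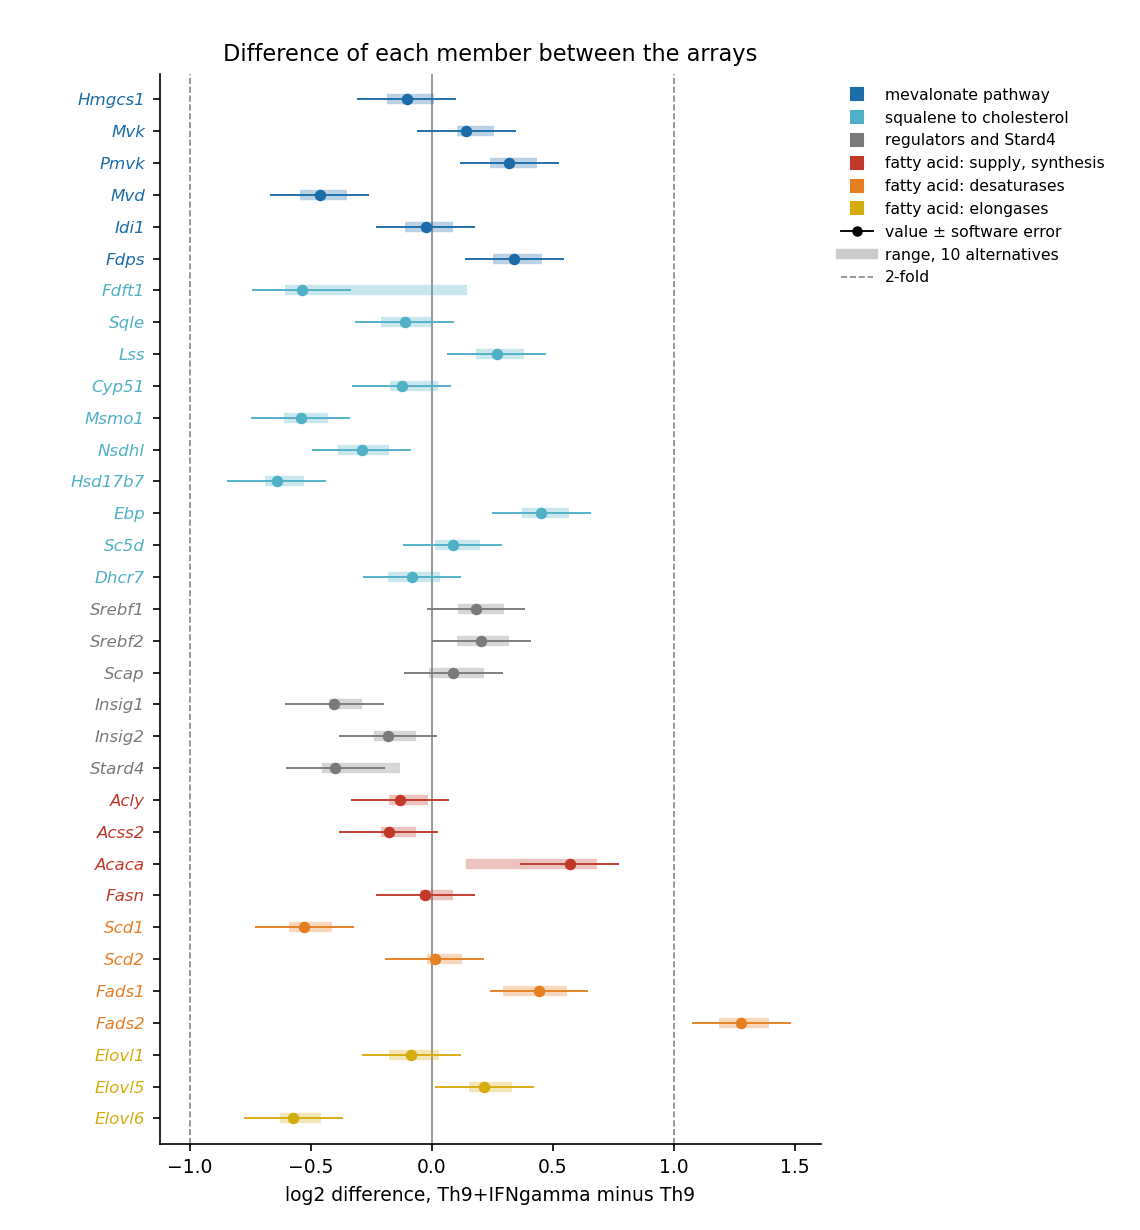
Log2 difference (Th9+IFNgamma minus Th9) of each of the 33 genes, coloured by role, with the software error of 0.20 as a line and the range over 10 alternative settings as a pale band. Fads2 alone passes the dashed 2-fold line in every setting, and the band of Fdft1 reaches 0.15 through its dim probe.

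The genes that control the pathway were within 1.5-fold in all 6 cases. Srebf1, which encodes the SREBP-1 factors that mainly drive fatty acid genes, had 30596 in Th9+IFNgamma cells and 26962 in Th9 cells. Srebf2, which encodes the factor that mainly drives sterol genes, had 3570 in Th9+IFNgamma cells against 3098 in Th9 cells, and Scap had 16034 in Th9+IFNgamma cells against 15075 in Th9 cells. These 3 activating genes were 1.06-fold to 1.15-fold higher, with Scap at -0.01 in its lowest alternative setting. Insig1, itself a classical SREBP target, had 379 in Th9+IFNgamma cells against 502 in Th9 cells (1.32-fold lower). Insig2 had 1304 in Th9+IFNgamma cells against 1478 in Th9 cells (1.13-fold lower). Srebf1, Scap and Insig2 lay within the software error of 0.20, and Srebf2, at 0.20, about equalled it. Stard4, a carrier of cholesterol between membranes and also a sterol-regulated gene, had 3786 in Th9+IFNgamma cells against 4989 in Th9 cells. By its brightest probe it was 1.32-fold lower, and its other 2 probes gave log2 differences of -0.14 and -0.13. The median over the 6 genes was -0.05. An array of transcripts does not measure SREBP processing.

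The enzymes that supply and build fatty acids were level apart from Acaca. Acly, which makes cytosolic acetyl-CoA from citrate, had 1973 in Th9+IFNgamma cells and 2162 in Th9 cells, and Acss2, which makes it from acetate, had 932 in Th9+IFNgamma cells against 1055 in Th9 cells. Fasn, the synthase that builds palmitate, had 70955 in Th9+IFNgamma cells against 72317 in Th9 cells. None of these 3 differed by more than 1.13-fold. Acaca, acetyl-CoA carboxylase, the committed step, had 674 in Th9+IFNgamma cells against 454 in Th9 cells, 1.48-fold higher. Its other 3 probes were dim, with signals of 19.1 to 34.1, and gave differences from 0.14 to 0.39, so all 4 probes were positive and the size depended on the probe.

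The desaturases and elongases went both ways, from 1.49-fold lower for Elovl6 to 2.42-fold higher for Fads2. Fads2 had 3844 in Th9+IFNgamma cells against 1585 in Th9 cells by its 1 probe (log2 difference 1.28), and 383 of the 12272 named genes had a difference at least as high. Fads1, the delta-5 desaturase that acts after Fads2 on polyunsaturated chains, had 1221 in Th9+IFNgamma cells against 899 in Th9 cells, 1.36-fold higher. Elovl5, which elongates the chains between these desaturases, had 8542 in Th9+IFNgamma cells against 7353 in Th9 cells, 1.16-fold higher, and both its probes were positive. The polyunsaturated branch thus lay above 0 in all 3 genes, and in each of the 10 alternative settings its differences were at least 1.19 for Fads2, 0.29 for Fads1 and 0.15 for Elovl5. Fads2 and Fads1 have 1 probe each, so settings that change the filter or the choice of probe could not move them. Fads3, a relative not among the 33 genes, was dim, at 117 in Th9+IFNgamma cells and 83.0 in Th9 cells (1.42-fold higher). With normexp background correction its log2 difference was 0.20 in place of 0.50. A second Fads3 probe was not well above background in either culture. In the gene table Fads3, Fads2 and Fads1 are consecutive protein-coding genes on chromosome 19.

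Enzymes of saturated and monounsaturated chains lay the other way or level. Scd1, a stearoyl-CoA desaturase that makes oleate, had 4947 in Th9+IFNgamma cells against 7130 in Th9 cells, 1.44-fold lower. Elovl6, which lengthens palmitate to stearate, had 3147 in Th9+IFNgamma cells against 4677 in Th9 cells, 1.49-fold lower. Both stayed below 0 in the 10 alternative settings, at most -0.41 for Scd1 and -0.46 for Elovl6. Each has 1 probe, so settings that change the filter or the choice of probe could not move it. Scd2, a second stearoyl-CoA desaturase, was level at 58699 in Th9+IFNgamma cells and 58216 in Th9 cells, as was Elovl1, an elongase of very long chains, at 16441 in Th9+IFNgamma cells and 17432 in Th9 cells. Scd1 and Scd2 are related in sequence and each had 1 probe, so uptake of the relative's RNA by a probe was not tested. The division into a polyunsaturated and a saturated branch was made after the values were seen.

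Set against each other, sterol enzymes had a median log2 difference of -0.09 (16 genes, from -0.64 to 0.45) and fatty acid enzymes one of -0.03 (11 genes, from -0.57 to 1.28). The difference of these medians was -0.07, smaller than the spread within either group, whose SD was 0.34 among sterol enzymes and 0.53 among fatty acid enzymes (0.37 without Fads2). The median over all named genes was -0.01. Over the 10 alternative settings the difference of medians ran from -0.15 with quantile normalization to 0.03 with the probe of smallest difference. Centring each array on its median moved all genes by 0.11 and brought the sterol and fatty acid medians to 0.02 and 0.09, so neither group had a direction that held under each scaling. By the size of the difference, 1 of 16 sterol enzymes and 1 of 11 fatty acid enzymes passed 1.5-fold, Hsd17b7 downward and Fads2 upward.

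Other genes of these pathways were taken from a list of 69, of which 60 were measured on both arrays. Of these 60, 1 was at least 2-fold higher in Th9+IFNgamma cells and 4 were at least 2-fold lower, against 5.15% and 7.42% of all named genes, so that neither count stood above the background. The lamin B receptor gene Lbr, whose product is also a sterol reductase, was the highest of the 8 genes listed as other sterol enzymes, at 1.46-fold. All 8 lay within 1.5-fold. Lbr, and the other genes named below without a 2-fold difference, were chosen after their values were seen.

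Of 14 measured genes of sterol uptake, efflux and sensing, 1 was at least 2-fold higher and 2 were at least 2-fold lower, against the same 5.15% and 7.42% of all named genes. Mylip, which encodes the ubiquitin ligase IDOL, had 577 in Th9+IFNgamma cells against 99.9 in Th9 cells, 5.78-fold higher. Its second probe was not well above background in either culture. With normexp background correction the log2 difference of Mylip was 1.99 in place of 2.53, still past 2-fold. Abca1, a cholesterol exporter, had 42.7 in Th9+IFNgamma cells against 116 in Th9 cells (2.71-fold lower), and Abcg1, another exporter, had 2647 in Th9+IFNgamma cells against 1451 in Th9 cells (1.82-fold higher). Mylip, Abca1, Abcg1 and Srebf1 are known targets of the sterol-sensing LXR receptors, whose activity was not tested. Of these genes Abca1 was lower, and Mylip, Abcg1 and Srebf1 were higher, Srebf1 within the software error. The LXR gene Nr1h2 had 3530 in Th9+IFNgamma cells against 3018 in Th9 cells. Ch25h, which makes 25-hydroxycholesterol and is known as an interferon-induced gene in macrophages, had 27.9 in Th9+IFNgamma cells against 132 in Th9 cells, 4.74-fold lower. Abca1 and Ch25h were dim, and with normexp background correction their log2 differences were -0.89 and -1.22 in place of -1.44 and -2.25, so that Abca1 no longer passed 2-fold. Of the macrophage and dendritic cell markers given above, Adgre1 was 7.19-fold lower and Flt3 1.31-fold lower in Th9+IFNgamma cells. Csf1r was level, and Cd14 was 1.24-fold higher. The part of such cells in the Ch25h and Abca1 values was not tested.

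Among 20 other fatty acid enzymes and cofactors, 1 gene was at least 2-fold lower, against 7.42% of all named genes. That gene was Hacd1, a dehydratase of the elongation cycle, at 83.8 in Th9+IFNgamma cells against 213 in Th9 cells. Its log2 difference was -1.34, and -0.88 with normexp, which is under 2-fold. The elongase gene Elovl7 was just under the threshold, at 190 in Th9+IFNgamma cells against 95.5 in Th9 cells (1.99-fold higher), and passed it in 3 of 9 settings. Acsl5, an acyl-CoA synthetase, was 1.81-fold higher, and Acacb, the mitochondrial acetyl-CoA carboxylase, was 1.70-fold lower. Elovl4 was well above background in Th9 cells only, which puts it at least 1.97-fold lower in Th9+IFNgamma cells. Scd3, Scd4, Elovl2 and Elovl3 were not well above background in either culture.

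Fatty acid oxidation, which breaks down the chains that synthesis builds, had 11 of 14 measured genes below 0 and a median of -0.30 (Cpt1b and Hadhb turned sign in some alternative settings), against 6188 of 12272 named genes below 0. Of the 14, only Hadh, a dehydrogenase of the cycle, was at least 2-fold lower (7.42% of all named genes were), at 2148 in Th9+IFNgamma cells against 4824 in Th9 cells (2.25-fold), and with normexp its log2 difference was -0.93 in place of -1.17, under 2-fold. Cpt1a, which admits fatty acids to mitochondria, had 1723 in Th9+IFNgamma cells against 2189 in Th9 cells, 1.27-fold lower.

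**Figure D4:**
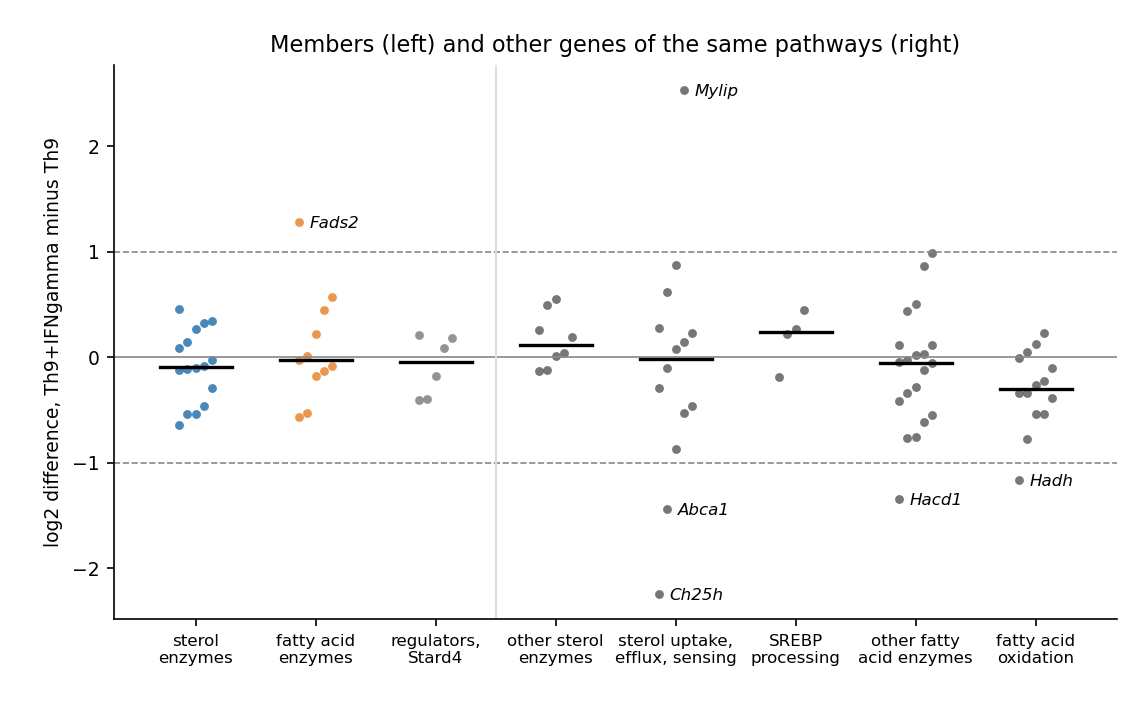
Log2 difference (Th9+IFNgamma minus Th9) of the 33 genes in 3 groups (left) and of 60 other genes of the same pathways in 5 groups (right), with a bar at each group's median and names on genes at least 2-fold apart. Differences past the dashed 2-fold lines are Fads2 on the left and Mylip, Abca1, Ch25h, Hacd1 and Hadh on the right.

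Genes of cell division lay higher in the Th9+IFNgamma culture. Of a proliferation list, 13 of 13 measured genes had a positive difference, with a median log2 difference of 0.80, against 6084 of the 12272 named genes with a positive one. Of the 13, Top2a and Tyms passed 2-fold upward, as did 5.15% of all named genes. The mitotic gene Mki67 had 44926 in Th9+IFNgamma cells against 25736 in Th9 cells, and the thymidylate synthase gene Tyms had 16048 in Th9+IFNgamma cells against 6743 in Th9 cells. The median over the 33 lipid synthesis genes was -0.08. The part of cell division in the values of Fads2 and the other lipid genes was not tested.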

How the data were processed

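Total RNA (500 ng per sample) was labelled with Cy3 and hybridised to 2 single-colour Agilent arrays, 1 per culture, which per the file headers lay on 1 slide and were read in 1 scan. The intensity values were deposited by the authors as the output of Agilent Feature Extraction, version 10.7.3.1 in the headers and 10.7 in the submitters' processing notes, background-subtracted and detrended within each array and not scaled between arrays. The other deposited columns are flags. A table of log2 values was also deposited by the authors. Set against the scanner intensities it equals the log2 processed signal (the median where a probe has several spots) minus 1 constant per array (SD of the offset 2.48e-07 and 2.21e-07, column medians -4.05 for Th9+IFNgamma and -3.93 for Th9).

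Log2 signals were averaged over a probe's spots without outlier flags and centred on the 75th percentile of their array, a signal of 631.9 in Th9+IFNgamma and 567.0 in Th9, which was set to 598.6 on both. Control spots and 3 of 41174 probes were left out, and 0 spots were saturated. Through their RefSeq accession 27050 probes named 18434 genes of the GRCm38.p6 gene table, while the arrays were annotated on mm9, so no gene coordinates were combined. In Th9+IFNgamma 60.6% of probes, and in Th9 59.9%, were well above background. Each gene took the value of 1 probe, the brightest that both arrays flagged as well above background. A gene detected on 1 array has a bound ("at least"), its signal there over the dim signal or the lowest detected signal of the other array, whichever is higher. The number of arrays limits the precision.

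All 33 genes are named, and of the other lists those at least 2-fold apart and a few genes chosen after their values were seen. Some genes that the rule also named are not reported here. The members and lists were chosen with earlier results of these data known. Alternatives were other scalings (median, detected probes, quantile, loess), normexp background correction (limma 3.58.1, offset 50), other filters, other probe rules, the deposited log2 table and a 1.5-fold threshold. Calculations used Python 3.11.15, pandas 2.3.3 and R 4.3.3 and were tested on simulated data.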

Additional observations from a re-analysis of the deposited data

How the results depend on the processing

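The count of lipid synthesis genes at least 2-fold apart, 1 higher and 0 lower, was the same in all 10 settings that kept the 2-fold threshold, and Fads2 ranged from 1.19 to 1.39. With a 1.5-fold threshold 1 gene was lower. Of 330 single values of the 33 genes under these settings, 322 moved by less than the single-spot SD of 0.14 over all signals. That SD is wide for these genes, since 30 of the 33 had a mean signal of 1000 or more, where it was 0.05. Median scaling alone moved each gene by 0.11, which is more than 0.05. The sign held in all settings for 23 genes and turned in at least 1 for 10, all within 1.10-fold in the main setting except Fdft1. Several settings could not move a value, however. The filters left the same probe for all 33 genes, and the probe rules cannot act on the 15 genes with 1 probe. The deposited table holds the same signals minus a constant per array. The group medians moved by less than 0.14 in each setting, although that SD describes single spots and not medians. Sterol enzymes ran from -0.17 to 0.02, fatty acid enzymes from -0.05 to 0.09 and regulators from -0.11 to 0.07. The counts in the wider list were less stable. Genes at least 2-fold higher numbered 2 with median scaling, with quantile normalization and with loess, 0 with signals of at least 100, and 5 at 1.5-fold, in place of 1. Genes at least 2-fold lower numbered 1 with normexp, 1 with signals of at least 100, 5 with no filter on dim probes, and 9 at 1.5-fold, in place of 4. Filtering at 100 removed dim genes by construction, among them Mylip, at 99.9 in Th9 cells. Elovl7 was the gene added by median scaling, quantile normalization and loess, and Elovl4 the gene added without the filter. With normexp Abca1, Hacd1 and Hadh fell under 2-fold. Why the values of these genes moved was not tested. Normexp used median spot signals, since the files hold no mean signal, and was chosen in this form after seeing the files. Over all named genes, normexp left 437 higher and 582 lower at 2-fold, against 632 and 910. No paired analysis was possible because each culture has 1 array. Signal over background limits the dim genes Abca1, Ch25h and Hacd1, and Mylip, which was dim in Th9 cells. No error covers variation between cultures.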
